A study of Mus musculus with 4 samples.

Results

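The conjugation enzymes and epoxide hydrolases of AML12 mouse hepatocytes are described here, after knockdown of Topors and in control cells. The set was chosen by gene name alone, without measured values. It holds the genes of the deposited table named as a glutathione transferase (Gst, mostly cytosolic) or a microsomal glutathione transferase (Mgst). It also holds those named as a UDP-glucuronosyltransferase (Ugt), a sulfotransferase (Sult, pseudogenes included) or an epoxide hydrolase (Ephx). That gave 78 genes of 52630 in the table. Genes whose level averaged 1 TPM or more across the 4 libraries were taken as expressed, which held for 39 of the 78 and for 13509 genes in all. TPM is a transcript abundance scaled to gene length and library, so levels of different genes can be compared.

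AML12 is a line of non-tumour mouse hepatocytes that was established from liver of mice carrying a human TGF-alpha transgene. Cells of the shTopors group were infected with lentivirus encoding a short hairpin RNA against Topors, and cells of the shCtrl group with a control hairpin. Both groups were grown with fetal bovine serum, an ITS supplement and dexamethasone, a glucocorticoid. Both received 200 µl of virus concentrate per well, had their medium changed after 24 hours and were collected on day 5. Each group has 2 libraries of total RNA, depleted of ribosomal RNA. Whether the libraries of a group are from separate cultures, or from more than 1 hairpin, is not stated in the labels. P-values therefore reflect only the spread within these pairs of libraries, and that spread may be technical.

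These enzymes make lipophilic and reactive compounds easier to excrete. Cytosolic glutathione transferases and their microsomal counterparts join glutathione to electrophiles, UDP-glucuronosyltransferases add glucuronic acid, and sulfotransferases move a sulfate group from the donor PAPS. Epoxide hydrolases open epoxides, many of them made by cytochrome P450 enzymes, to diols. The liver carries much of this work, and many of the genes are known targets of NRF2, of the aryl hydrocarbon receptor or of the nuclear receptors CAR and PXR.

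The comparison asks how a lower level of Topors, which encodes a ligase for ubiquitin and SUMO, goes with transcript levels of these enzymes. Topors itself was at 4.31 and 4.65 TPM in shTopors 1 and 2, against 21.9 and 29.2 TPM in shCtrl 1 and 2. Both knockdown libraries lay below both controls, 5.71-fold lower in the mean. The log2 difference was -2.27 (SE 0.288, adjusted p = 0.0823 in limma's test), so even the targeted gene did not pass the threshold of 0.05. With 1 library left out the log2 difference of Topors ran from -2.46 to -2.07. A level of 1 TPM or more was reached by 12928 and 13112 genes in shTopors, against 13581 and 13847 in shCtrl, and TPM summed to between 999914 and 999943 per library. TPM does not retain the number of reads behind a value, so depth is unknown. Hepatocyte markers, 10 of 12 of which had a mean of at least 1 TPM, summed to 8489 and 6766 TPM in shTopors, against 7587 and 9141 TPM in shCtrl. Most of that sum came from the keratins Krt8 and Krt18. Krt18 was at 3239 and 2168 TPM in shTopors, against 2069 and 1719 TPM in shCtrl. Other hepatocyte markers were lower in both shTopors libraries, as many of the enzymes were. Ttr, the transthyretin gene, was at 195 and 410 TPM in shTopors, against 1119 and 2168 TPM in shCtrl. Trf, the transferrin gene, was at 1182 and 1373 TPM in shTopors, against 1556 and 2279 TPM in shCtrl. Apob, the apolipoprotein B gene, was at 270.0 and 144 TPM in shTopors, against 319 and 360 TPM in shCtrl. The part of these differences in the enzymes' values was not tested. Apoa2 and Fgb, markers of mature hepatocytes, were under 1 TPM in the mean, and Alb, the albumin gene, was at 4.15 and 402 TPM in shTopors, against 118 and 271 TPM in shCtrl. Markers of bile duct cells, 6 of 7 of which had a mean of at least 1 TPM, summed to 1911 and 1126 TPM in shTopors, against 1013 and 1459 TPM in shCtrl. Markers of stellate cells, endothelium and leukocytes were nearly absent. Their sums ran from 0.0692 to 1.38 TPM in shTopors, against 0.0626 to 1.65 TPM in shCtrl, and 8 of these 22 markers, among them Col1a2, Lrat, Cdh5, Lyve1 and Adgre1, were listed at 0 in all libraries.

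Ephx1, which encodes the microsomal epoxide hydrolase, was the expressed member with the smallest p, at 143 ± 23.1 TPM in shTopors and 499 ± 13.4 TPM in shCtrl (SD, n = 2 each). The other members with a log2 difference of at least 1 and groups that did not overlap were all lower in shTopors. They were Gsta3, Gstm1, Gstm2, Gstm7, Gstz1, Mgst1, Ugt2b34 and Ugt2b35. Mgst3 stood on the other side, at 118 ± 18.0 TPM in shTopors and 73.8 ± 10.9 TPM in shCtrl. Gsto1, Gsta4, Ephx2, Sult1a1 and most of the Ugt1 genes had groups that overlapped. No member passed the threshold in limma's fit, with p-values adjusted by Benjamini-Hochberg over 13509 genes. Of all genes tested, 0.0074% passed as higher in shTopors and 0.0296% as lower.

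Summed over all 78 genes, the members took 1706 and 1946 TPM in shTopors, against 2756 and 3905 TPM in shCtrl, which is 1.82-fold lower in the mean. Both shTopors sums lay below both shCtrl sums. Of the 39 expressed members, 31 had a log2 difference below 0 (79.5%, against 65.9% of all genes tested). Their median log2 difference was -0.73, against -0.183 over all genes. That median of all genes depends on the scaling between libraries. With median-of-ratios scaling it was -0.016, and with quantile normalization -0.006. The members' median was then -0.54 and -0.51, and 29 and 28 members were below 0. The groups did not overlap, with shTopors lower, for 16 members (41.0%, against 35.2% of all genes), and with shTopors higher for 2 members, Mgst3 and Ugt1a2 (5.13%, against 14.6%). These shares of non-overlap in the lower direction are close to the background. With a log2 difference of at least 1 as well, 9 members were lower (23.1%, against 5.19%) and 0 higher (against 1.86%). At an unadjusted p under 0.05 in limma's test, 13 members were lower (33.3%, against 10.7%) and 1, Mgst3, was higher (2.56%, against 3.98%).

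**Figure D1:**
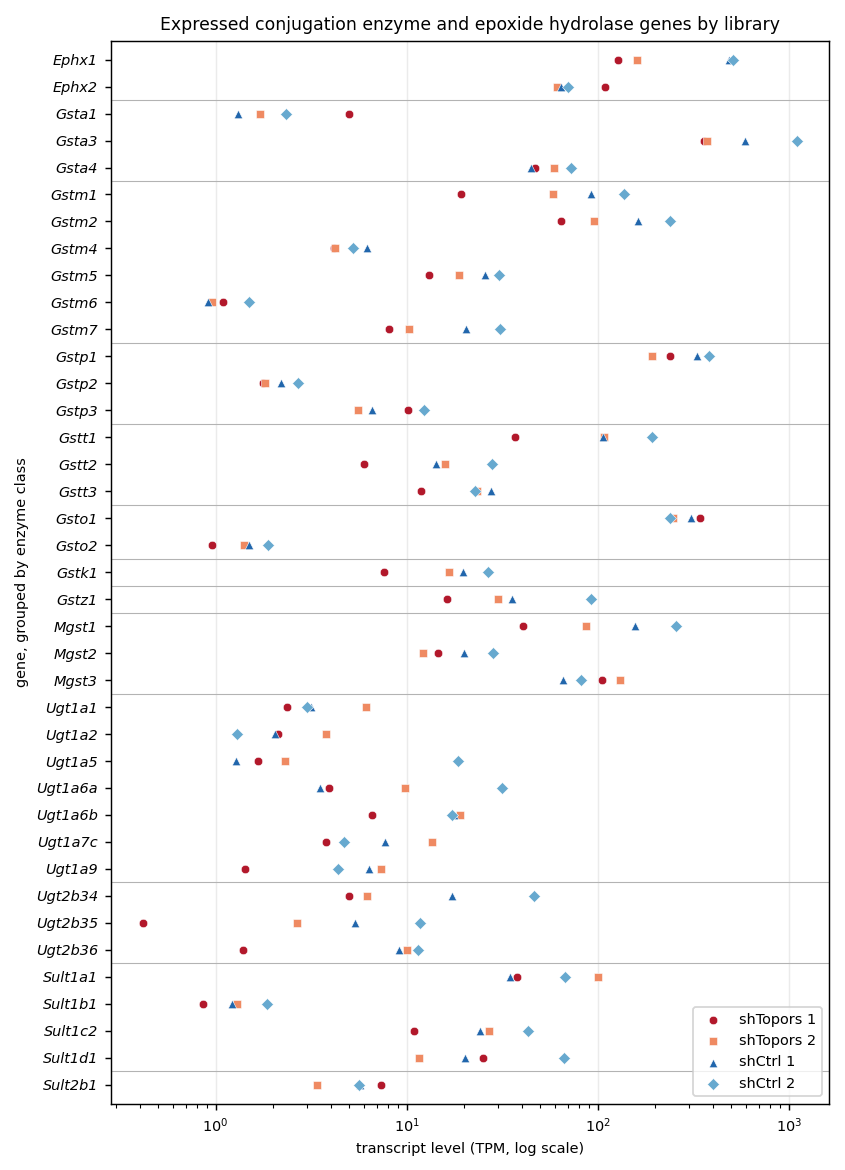
Transcript level in TPM on a log10 axis for the expressed members, grouped by enzyme class, with 1 point per library (circles and squares for shTopors 1 and 2, triangles and diamonds for shCtrl 1 and 2). Ephx1 lies at 127 and 159.7 TPM in shTopors, apart from 489 and 508 TPM in shCtrl, while the points of Gsto1 interleave between 238 and 345 TPM.

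Promoter sequence is shown for Ephx1, the leading member, and for the 3 members whose promoter held a match to the core of the antioxidant response element, the site bound by NRF2 with a small MAF protein. Each sequence is the 250 bases before the outermost RefSeq start of the gene (build GRCm38.p6), written on the gene's strand. RefSeq starts need not be those of GENCODE, whose Ephx1 start lies further upstream. A window was found for 35 of the 39 expressed members. In Ephx1 (chr1:181017570-181017819, minus strand) the capitals mark TATAAA, the motif of the TATA box, 214 bases before the start. In Gsta3 (chr1:21240335-21240584, plus strand), Gstm5 (chr3:107895604-107895853, plus strand) and Mgst1 (chr6:138140277-138140526, plus strand) they mark TGACNNNGC, read on either strand, at 121, 42 and 56 bases before the start. In Mgst1 the match lies on the opposite strand and past the GENCODE start of the gene (138140316), which falls within the window. The GENCODE start of Gstm5 (107895821) also falls within its window, after the match.
Ephx1: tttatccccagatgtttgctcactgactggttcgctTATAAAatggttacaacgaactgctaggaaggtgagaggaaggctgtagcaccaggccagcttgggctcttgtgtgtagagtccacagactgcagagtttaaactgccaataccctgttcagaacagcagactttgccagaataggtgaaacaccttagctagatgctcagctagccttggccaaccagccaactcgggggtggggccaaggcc
Gsta3: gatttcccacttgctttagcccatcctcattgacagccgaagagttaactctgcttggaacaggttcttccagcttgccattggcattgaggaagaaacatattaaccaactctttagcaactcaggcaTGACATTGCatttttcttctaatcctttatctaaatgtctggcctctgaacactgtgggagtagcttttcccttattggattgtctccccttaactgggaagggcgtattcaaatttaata
Gstm5: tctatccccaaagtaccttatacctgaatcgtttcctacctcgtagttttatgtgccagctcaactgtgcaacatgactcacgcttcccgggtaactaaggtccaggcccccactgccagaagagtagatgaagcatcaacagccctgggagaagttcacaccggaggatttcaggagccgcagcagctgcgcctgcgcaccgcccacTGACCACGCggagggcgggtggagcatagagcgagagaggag
Mgst1: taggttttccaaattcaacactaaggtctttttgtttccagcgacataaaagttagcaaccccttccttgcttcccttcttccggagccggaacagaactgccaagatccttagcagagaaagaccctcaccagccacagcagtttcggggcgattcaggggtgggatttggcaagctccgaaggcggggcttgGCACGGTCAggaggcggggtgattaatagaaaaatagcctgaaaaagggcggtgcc
TGACNNNGC occurred in 10.14% of 27025 RefSeq promoters of this length, and in 3 of the 35 member promoters. TATAAA occurred in 12.98% of all promoters and in 3 member promoters, those of Ephx1, Gstm7 and Mgst2. A match describes the letters only, and binding was not measured. Gsta3, Gstm5 and Mgst1 were each lower in both shTopors libraries than in both shCtrl libraries, and so were 13 other members and 35.2% of all genes.

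Of the 4 epoxide hydrolases, Ephx1 and Ephx2 were expressed. Ephx1 (ENSMUSG00000038776, mm10 chromosome 1, 180976210 to 181020904, minus strand) encodes the enzyme of the endoplasmic reticulum that hydrolyses epoxides of drugs and aromatic hydrocarbons, and its promoter is the first sequence above. It was at 127 and 159.7 TPM in shTopors 1 and 2, against 489 and 508 TPM in shCtrl 1 and 2. The gap between the groups was wider than the spread within either, and the mean was 3.48-fold lower in shTopors. The log2 difference was -1.80 (SE 0.224, adjusted p = 0.0823 in limma's test), a tie in adjusted p with Topors. With 1 library left out the log2 difference ran from -1.96 to -1.64. The limma adjusted p was 1.28e-05 without shTopors 1, 2.07e-08 without shTopors 2, 0.310 without shCtrl 1 and 0.872 without shCtrl 2. Where a group is left with a single library, limma takes its spread from the other group. Ephx1 made up 7.45% and 8.21% of all member TPM in shTopors, against 17.8% and 13.0% in shCtrl. In its exons 3.7% of bases are shared with Gm36961 on the same strand.

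Ephx2 encodes the soluble epoxide hydrolase, which acts on epoxides of fatty acids. It was at 109 and 61.3 TPM in shTopors 1 and 2, against 64.4 and 70.2 TPM in shCtrl 1 and 2. The shTopors libraries lay on either side of both controls, and the log2 difference was 0.28 (SE 0.317, adjusted p = 0.691 in limma's test). Ephx3, a hydrolase of fatty acid epoxides, was between 0.416 and 0.516 TPM in the 4 libraries, and Ephx4 was listed at 0 in all of them. As a sum, the 4 genes were at 236 and 221.5 TPM in shTopors, against 554 and 579 TPM in shCtrl.

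**Figure D2:**
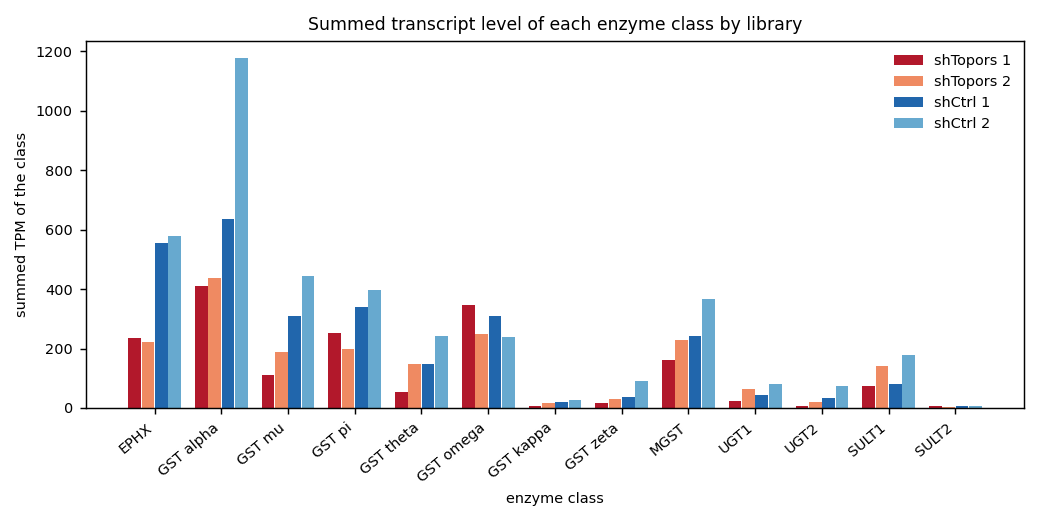
Bars give the summed TPM of each enzyme class with an expressed member, with 1 bar per library and shTopors left of shCtrl. The epoxide hydrolase sums are 236 and 221.5 TPM in shTopors and 554 and 579 TPM in shCtrl, and the omega class sums overlap, at 346 and 249 TPM in shTopors and 309 and 240.0 TPM in shCtrl.

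Glutathione transferases with a Gst name, counted as cytosolic apart from Gstk1, numbered 22, of which 19 were expressed. They held most of the members' transcript abundance, with 1197 and 1267 TPM in shTopors, against 1796 and 2619 TPM in shCtrl (1.79-fold lower). In 11 of the 19 both shTopors libraries lay below both shCtrl libraries, in 0 above, and in 8 the groups overlapped, against 35.2% of all genes below and 14.6% above. Their median log2 difference was -0.73.

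In the alpha class, Gsta3 led by level. Its product in mouse conjugates the epoxide of aflatoxin B1. Gsta3 (mm10 chromosome 1, 21240589 to 21265661, plus strand) was at 358 and 376 TPM in shTopors 1 and 2, against 588 and 1101 TPM in shCtrl 1 and 2. The shTopors libraries lay close together, and the controls 1.87-fold apart. The mean was 2.30-fold lower, with a log2 difference of -1.13 (SE 0.309, adjusted p = 0.222 in limma's test) that ran from -1.58 to -0.68 with 1 library left out. Gsta4 encodes the form with high activity on 4-hydroxynonenal, a product of lipid peroxidation. It was at 47.1 and 58.8 TPM in shTopors, against 44.6 and 72.2 TPM in shCtrl. Both shTopors values lay between the controls, and the log2 difference was -0.11 (SE 0.308, adjusted p = 0.880 in limma's test). Gsta1, an inducible alpha enzyme, was at 4.99 and 1.71 TPM in shTopors, against 1.32 and 2.33 TPM in shCtrl. Its value is uncertain, since 89.7% of its 50-base words also occur in transcripts of other genes, Gsta2 and Gm3776 among them. Gsta2 was between 0.636 and 1.06 TPM.

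The mu class is encoded in a cluster on chromosome 3, and 6 of its 7 genes were expressed. All 6 had a log2 difference below 0, as did 65.9% of all genes, and 5 were lower with groups that did not overlap, as were 35.2% of all genes. The class sum was 110.2 and 188 TPM in shTopors, against 308 and 445 TPM in shCtrl. Gstm2 was at 64.5 and 95.5 TPM in shTopors 1 and 2, against 162 and 239.6 TPM in shCtrl 1 and 2. That is 2.51-fold lower in the mean, with a log2 difference of -1.32 (SE 0.303, adjusted p = 0.176 in limma's test). Gstm1, often the leading mu form of mouse liver, was at 19.2 and 58.4 TPM in shTopors, against 92.7 and 137 TPM in shCtrl. The shTopors libraries were 3.04-fold apart and still both below the controls, with a log2 difference of -1.71 (SE 0.495, adjusted p = 0.224 in limma's test). Other genes hold 23.1% of the 50-base words of Gstm1 and 9.4% of those of Gstm2, so their values carry some uncertainty.

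Gstm7 (chromosome 3, 107926334 to 107931817, minus strand) shared no such word with another gene. It was at 8.12 and 10.2 TPM in shTopors, against 20.3 and 30.8 TPM in shCtrl, 2.79-fold lower, with a log2 difference of -1.36 (SE 0.313, adjusted p = 0.176 in limma's test). Gstm5 was at 13.1 and 18.9 TPM in shTopors, against 25.6 and 30.6 TPM in shCtrl. Its log2 difference was -0.79, and 13.9% of its exonic bases lie opposite the antisense gene 4933431E20Rik. Whether counting used strand is not stated in the labels, so reads from the pair may not have been separated. Gstm4 was at 4.15 and 4.24 TPM in shTopors, against 6.20 and 5.23 TPM in shCtrl. Gstm6 lay near 1 TPM with overlapping groups, and Gstm3 was at most 0.312 TPM.

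In the pi class, Gstp1 encodes an abundant transferase that also binds the kinase JNK. It was at 239 and 192 TPM in shTopors, against 332 and 380.5 TPM in shCtrl, 1.65-fold lower in the mean. The groups did not overlap, and the log2 difference was -0.73 (SE 0.227, adjusted p = 0.243 in limma's test). Since 62.3% of its 50-base words also occur in Gstp2 or the pseudogene Gstp-ps, its value is uncertain. The pseudogene, which is no member, was itself at 75.4 and 50.7 TPM in shTopors, against 107 and 118 TPM in shCtrl. Gstp2 was at 1.76 and 1.82 TPM in shTopors, against 2.21 and 2.70 TPM in shCtrl. Gstp3 shared no word with other genes and overlapped between groups, at 10.2 and 5.54 TPM in shTopors, against 6.56 and 12.3 TPM in shCtrl (log2 difference -0.23, SE 0.402, adjusted p = 0.800 in limma's test).

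The theta class, which conjugates small halogenated compounds, had 3 expressed genes of 4. All 3 overlapped between groups, while 35.2% of all genes were lower and 14.6% higher without overlap. Gstt1 was at 37.1 and 108 TPM in shTopors 1 and 2, against 107 and 193 TPM in shCtrl 1 and 2. Only shTopors 1 lay below both controls, and the log2 difference was -1.17 (SE 0.511, adjusted p = 0.354 in limma's test). Gstt2 had the same order, with 5.99 and 16.0 TPM in shTopors, against 14.2 and 28.0 TPM in shCtrl. Gstt3 was at 12.0 and 23.5 TPM in shTopors, against 27.5 and 22.7 TPM in shCtrl (log2 difference -0.55, SE 0.359, adjusted p = 0.495 in limma's test). In these 3 genes shTopors 1 was 1.96-fold to 2.90-fold below shTopors 2. Gstt4 was listed at 0.

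Among the single-gene classes, Gstz1 encodes maleylacetoacetate isomerase of tyrosine breakdown and Gstk1 a transferase of mitochondria and peroxisomes. Gstz1 was at 16.4 and 30.0 TPM in shTopors, against 35.7 and 92.0 TPM in shCtrl, 2.76-fold lower. Its shTopors 2 value lay close under shCtrl 1, and the log2 difference was -1.33 (SE 0.484, adjusted p = 0.290 in limma's test). Gstk1 was at 7.61 and 16.6 TPM in shTopors, against 19.7 and 26.8 TPM in shCtrl (log2 difference -0.96, SE 0.395, adjusted p = 0.328 in limma's test). The omega enzyme Gsto1, which acts on thiols and dehydroascorbate, was at 345 and 247 TPM in shTopors, against 307 and 238 TPM in shCtrl. Its groups overlapped, with a log2 difference of 0.11 (SE 0.260, adjusted p = 0.852 in limma's test). Its share of the members' TPM was 20.2% and 12.7% in shTopors, against 11.1% and 6.10% in shCtrl. Gsto2 was at 0.958 and 1.40 TPM in shTopors, against 1.49 and 1.88 TPM in shCtrl (log2 difference -0.31, SE 0.295, adjusted p = 0.643 in limma's test).

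The 3 microsomal glutathione transferases were all expressed and did not lie on the same side. Mgst1, which protects membranes of the endoplasmic reticulum and mitochondria from lipid peroxides and whose promoter is the last sequence above, was at 40.7 and 87.0 TPM in shTopors 1 and 2, against 157 and 257 TPM in shCtrl 1 and 2. Both shTopors libraries lay below the controls, 3.24-fold in the mean, with a log2 difference of -1.74 (SE 0.408, adjusted p = 0.177 in limma's test). Mgst2, which can make leukotriene C4, was at 14.6 and 12.3 TPM in shTopors, against 19.9 and 28.2 TPM in shCtrl (log2 difference -0.78, SE 0.295, adjusted p = 0.303 in limma's test). Mgst3, a relative with glutathione peroxidase activity, was at 105 and 131 TPM in shTopors, against 66.1 and 81.5 TPM in shCtrl. Both of its shTopors values were above both controls, 1.60-fold in the mean. The log2 difference was 0.67 (SE 0.252, adjusted p = 0.303 in limma's test) and stayed between 0.51 and 0.82 with 1 library left out. By these levels Mgst1 was the most abundant of the 3 in each shCtrl library, and Mgst3 in each shTopors library. Mgst3 took 6.17% and 6.71% of the members' TPM in shTopors, against 2.40% and 2.09% in shCtrl.

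**Figure D3:**
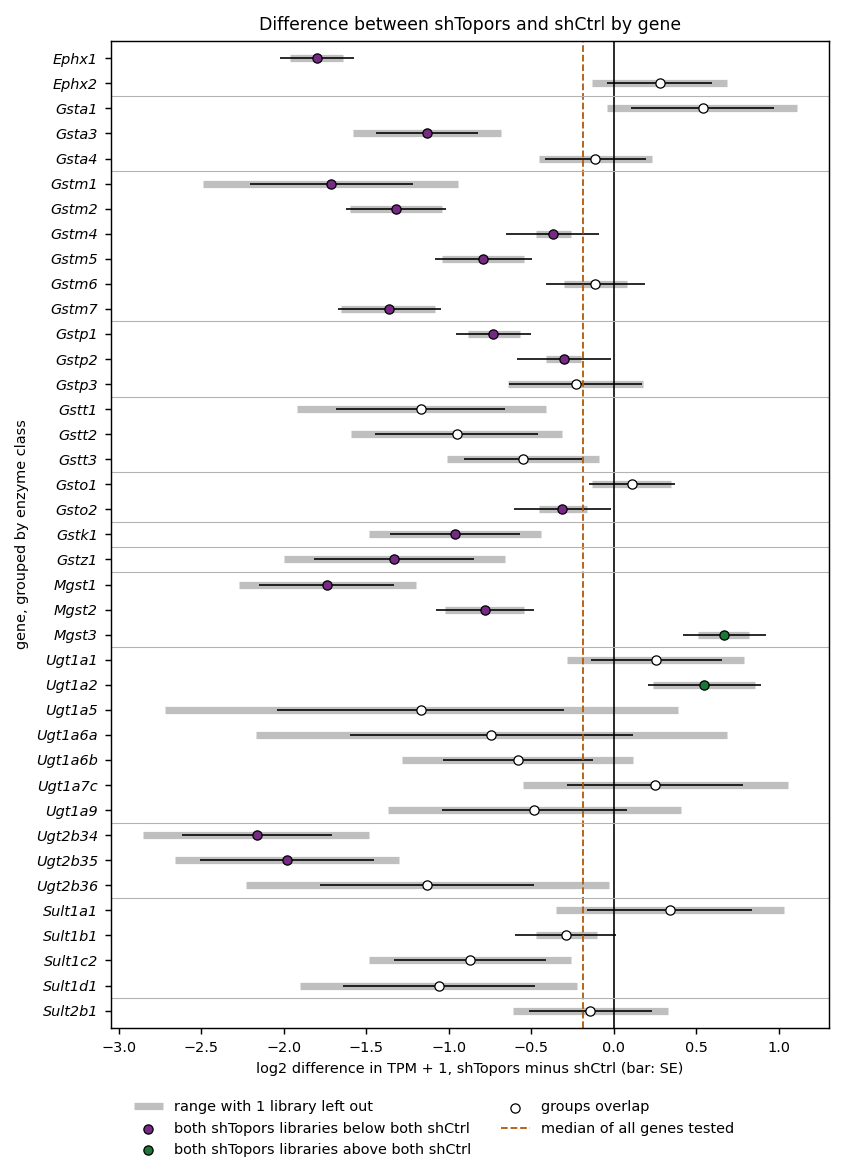
Log2 difference of shTopors minus shCtrl on log2(TPM + 1) for each expressed member, with thin bars for the standard error from limma and thick grey bars for the range with 1 library left out. Ephx1 has a difference of -1.80 with a range of -1.96 to -1.64, Mgst3 one of 0.67, and the median of all genes tested is -0.183.

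UDP-glucuronosyltransferases numbered 22, with 10 expressed, and their sum was 29.4 and 83.2 TPM in shTopors, against 76.0 and 154 TPM in shCtrl. The 3 expressed genes of the Ugt2 family, whose enzymes act on steroids, bile acids and drugs, all had a log2 difference below 0, as did 65.9% of all genes. Ugt2b34 (chromosome 5, 86889767 to 86906937, minus strand) was at 5.00 and 6.20 TPM in shTopors, against 17.3 and 46.4 TPM in shCtrl. The shTopors libraries were 1.24-fold apart and the controls 2.68-fold. The mean was 5.69-fold lower, the largest such fold among the expressed members, with a log2 difference of -2.16 (SE 0.455, adjusted p = 0.165 in limma's test). Ugt2b35 was at 0.419 and 2.66 TPM in shTopors, against 5.34 and 11.7 TPM in shCtrl (log2 difference -1.98, SE 0.528, adjusted p = 0.215 in limma's test). Ugt2b36 was at 1.39 and 10.0 TPM in shTopors, against 9.15 and 11.5 TPM in shCtrl. In it shTopors 2 lay between the controls, and the log2 difference was -1.13 (SE 0.648, adjusted p = 0.449 in limma's test) with all libraries and -0.03 without shTopors 1. The log2 scale with 1 TPM added understates the change of such low genes. Of the other 7 Ugt2 genes, 5 were above 0 in some library but under 1 TPM in the mean, Ugt2b5 highest with a mean of 0.860 TPM, and 2 were listed at 0.

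The 9 Ugt1a genes lie on the plus strand of chromosome 1 with separate first exons and shared later exons, and 7 of them were expressed. Since they share 50.3% to 60.6% of their exonic bases on that strand, each single value is uncertain. They also lie opposite the antisense gene Gm20528, over 9.1% of exonic bases in Ugt1a6a and 41.5% in Ugt1a1. Their sum was 22.3 and 62.7 TPM in shTopors, against 42.7 and 81.6 TPM in shCtrl, with overlapping groups. Ugt1a6a, whose enzyme glucuronidates small phenols, was at 3.92 and 9.76 TPM in shTopors, against 3.52 and 31.7 TPM in shCtrl. The controls were 9.01-fold apart, and the log2 difference was -0.74 (SE 0.857, adjusted p = 0.696 in limma's test). Ugt1a5 had the widest gap between controls, with 1.66 and 2.32 TPM in shTopors, against 1.27 and 18.6 TPM in shCtrl. Ugt1a6b was at 6.58 and 19.1 TPM in shTopors, against 17.7 and 17.2 TPM in shCtrl (log2 difference -0.58, SE 0.456, adjusted p = 0.562 in limma's test). Ugt1a1, which glucuronidates bilirubin, was at 2.37 and 6.10 TPM in shTopors, against 3.18 and 3.01 TPM in shCtrl. Ugt1a2 was higher in both shTopors libraries, at 2.13 and 3.79 TPM in shTopors, against 2.05 and 1.29 TPM in shCtrl, with shTopors 1 just above shCtrl 1 (log2 difference 0.55, SE 0.341, adjusted p = 0.474 in limma's test). Ugt1a7c and Ugt1a9 overlapped between groups, and in both shTopors 2 was the highest library and shTopors 1 the lowest. Ugt1a8, Ugt1a10, Ugt3a1 and Ugt8a were each under 1 TPM in all libraries.

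Genes with a Sult name numbered 27, of which 5 were expressed and 19 were listed at 0 in all libraries. The 19 include genes named as pseudogenes, which are Sult1c2-ps1, Sult1c2-ps2 and Sult2a-ps1 to Sult2a-ps4. The groups overlapped in all 5, while 35.2% of all genes were lower and 14.6% higher without overlap. Sult1a1, the main sulfotransferase of phenols, was at 37.9 and 100.4 TPM in shTopors, against 35.0 and 67.7 TPM in shCtrl (log2 difference 0.34, SE 0.500, adjusted p = 0.760 in limma's test). The shTopors libraries lay 2.65-fold apart, 1 near the lower control and 1 above both. Sult1d1, which acts on catecholamines in mouse, was at 25.1 and 11.6 TPM in shTopors, against 20.1 and 66.5 TPM in shCtrl (log2 difference -1.06, SE 0.581, adjusted p = 0.434 in limma's test). Sult1c2 was at 11.0 and 27.0 TPM in shTopors, against 24.3 and 43.3 TPM in shCtrl, and Sult1b1, which sulfates thyroid hormones, was between 0.858 and 1.86 TPM. In the Sult2 family, which acts on steroids and bile acids, 12 of 13 genes, the Sult2a pseudogenes included, were listed at 0 in all libraries. The remaining one was Sult2b1, the sulfotransferase of cholesterol and pregnenolone, at 7.37 and 3.39 TPM in shTopors, against 5.69 and 5.66 TPM in shCtrl. Its controls were nearly equal and lay between the shTopors libraries (log2 difference -0.14, SE 0.370, adjusted p = 0.870 in limma's test). Sult5a1, Sult6b1 and Sult6b2 were at most 0.315 TPM.

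The shTopors libraries also differed from each other in these genes. They were at least 2-fold apart in TPM for 17 of the 39 expressed members (43.6%, against 16.6% of all genes tested). The shCtrl libraries were that far apart for 6 members (15.4%, against 4.94%). Most members had the same direction in shTopors, with shTopors 1 below shTopors 2 in 30 (76.9%, against 51.7%). In the controls, shCtrl 1 was below shCtrl 2 also in 30 (76.9%, against 71.2%), a share close to that of all genes. Gstm1, Gstt1, Gstt2, Sult1a1, Ugt1a1, Ugt1a6b, Ugt1a7c, Ugt1a9, Ugt2b35 and Ugt2b36 were from 2.57-fold to 7.17-fold lower in shTopors 1 than in shTopors 2. Gsta1, Sult1d1 and Sult2b1 ran the other way, 2.93-fold, 2.17-fold and 2.17-fold higher in shTopors 1. Alb, at 4.15 and 402 TPM in shTopors 1 and 2, and the bile duct marker Krt19, at 1396 and 345 TPM there, against 341 and 296 TPM in shCtrl, also differed between these libraries, and their part in the members' values was not tested.

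**Figure D4:**
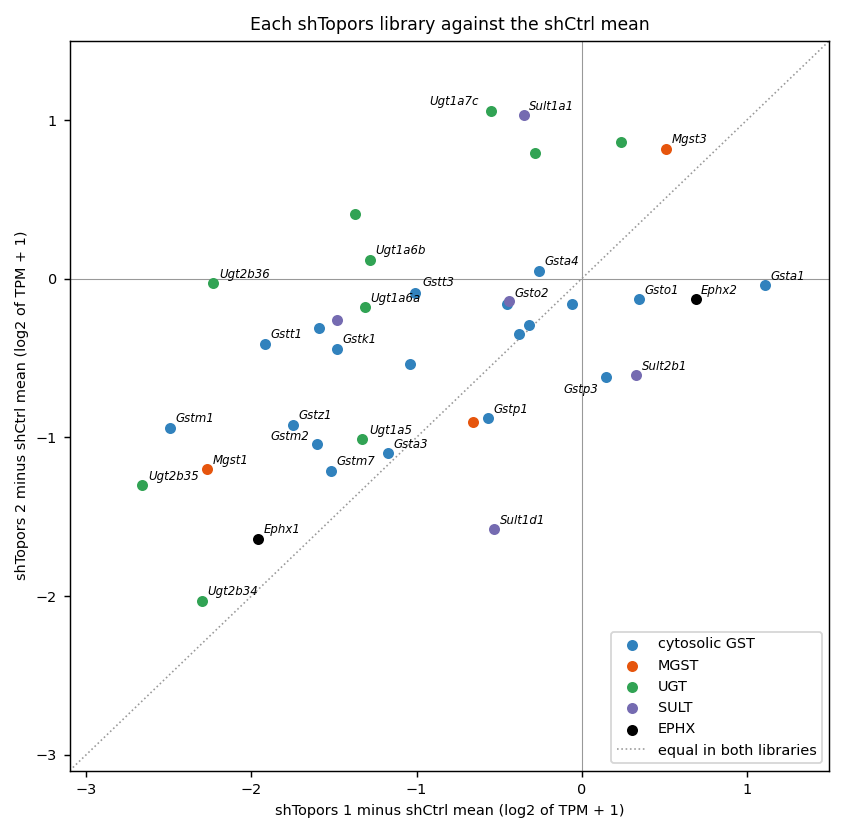
Log2 difference of each shTopors library from the mean of the shCtrl libraries, on log2(TPM + 1), with shTopors 1 on the x axis and shTopors 2 on the y axis and 1 point per expressed member. Ephx1 has -1.96 in shTopors 1 and -1.64 in shTopors 2, while Ugt2b36 has -2.23 and -0.03.

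The counts of calls moved with the library left out. Without shTopors 2, 20 members passed as lower in limma's test (51.3%, against 10.9% of all genes) and 1, Gsta1, as higher (2.56%, against 5.09%). Without shTopors 1, 10 members passed as lower (25.6%, against 6.67%), and Sult1a1 and Ugt1a7c passed as higher (5.13%, against 1.82%). The 10 were Ephx1, Gsta3, Gstm1, Gstm2, Gstm7, Gstp1, Mgst1, Sult1d1, Ugt2b34 and Ugt2b35. Ephx1, Gsta3, Gstm1, Gstm2, Gstm7, Mgst1, Ugt2b34 and Ugt2b35 passed as lower in both of these fits, which share the control libraries. Without shCtrl 1 the counts were 0 members in both directions (against 0.0222% of all genes lower and 0.0074% higher). Without shCtrl 2 they were also 0 (against 0.0% in both directions).

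Genes around these enzymes were counted from lists of cofactor supply, later steps, regulators and relatives. No gene of any of the 9 lists passed the adjusted threshold, which only 0.0296% of all genes passed as lower and 0.0074% as higher. Over all genes tested, 35.2% were lower and 14.6% higher with groups that did not overlap, and the median log2 difference was -0.183. Of 15 tested genes of glutathione synthesis and recycling, 6 were lower and 1 higher with groups that did not overlap, near the 35.2% of all genes that were lower, and the median log2 difference was -0.28. The smallest p there, and among the 3 tested mercapturic acid genes (2 lower without overlap, 0 higher, against 35.2% and 14.6% of all genes, median -0.59), was that of Ggt1, which cleaves glutathione and its conjugates outside the cell. Ggt1 was at 10.3 and 6.49 TPM in shTopors, against 15.3 and 22.9 TPM in shCtrl (log2 difference -1.10, adjusted p = 0.242 in limma's test). Of 8 genes of UDP-glucuronate supply and return, 1 was lower without overlap and 0 were higher (against 35.2% and 14.6% of all genes), with a median of 0.00. That gene was Ugp2, which makes UDP-glucose, at 57.4 and 79.6 TPM in shTopors, against 107 and 154 TPM in shCtrl (log2 difference -0.91, adjusted p = 0.245 in limma's test). Of 10 genes of sulfate donor supply and return, 4 were lower and 0 higher without overlap, against 35.2% and 14.6% of all genes, with a median of -0.34, against -0.183. Arsb, a lysosomal sulfatase, was at 3.94 and 1.67 TPM in shTopors, against 9.86 and 9.17 TPM in shCtrl (log2 difference -1.53, adjusted p = 0.177 in limma's test).

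Of 18 tested regulators, 8 were lower and 1 higher without overlap, against 35.2% and 14.6% of all genes, with a median log2 difference of -0.28. Foxa1, a pioneer factor of liver genes, was at 1.54 and 1.65 TPM in shTopors, against 6.20 and 8.80 TPM in shCtrl (log2 difference -1.69, adjusted p = 0.130 in limma's test). Nfe2l2 encodes NRF2 and was picked with its values already known. It was at 77.0 and 98.1 TPM in shTopors, against 119 and 144 TPM in shCtrl (log2 difference -0.59, adjusted p = 0.342 in limma's test). Of 18 NRF2 targets outside the enzyme families, 8 were lower and 1 higher without overlap, against 35.2% and 14.6% of all genes, with a median of -0.22, close to the -0.183 of all genes. Osgin1, a growth inhibitor induced by oxidative stress, was at 26.8 and 59.5 TPM in shTopors, against 143 and 90.4 TPM in shCtrl (log2 difference -1.49, adjusted p = 0.224 in limma's test). Of 7 other conjugating enzymes 2 were lower and 0 higher without overlap, against 35.2% and 14.6% of all genes, with a median of -0.10. Nnmt, which methylates nicotinamide, was at 1.92 and 6.09 TPM in shTopors, against 16.3 and 10.6 TPM in shCtrl (log2 difference -1.64, adjusted p = 0.224 in limma's test). Of 7 relatives of the glutathione transferases under other symbols, 2 were lower and 2 higher without overlap, against 35.2% and 14.6% of all genes, with a median of 0.13. Eef1g, a translation elongation factor subunit with a transferase-like domain, was at 2832 and 2220 TPM in shTopors, against 1768 and 1493 TPM in shCtrl (log2 difference 0.63, adjusted p = 0.258 in limma's test). Of 7 epoxide makers and other epoxide users the groups overlapped in all, while 35.2% of all genes were lower and 14.6% higher without overlap. Their median was -0.45, against -0.183 over all genes. Cyp2j5, a cytochrome P450 that epoxidises arachidonic acid, was at 1.67 and 7.43 TPM in shTopors, against 7.28 and 14.9 TPM in shCtrl (log2 difference -1.28, adjusted p = 0.365 in limma's test).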

How the data were processed

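RNA of 2 shTopors and 2 shCtrl samples of AML12 cells was measured. Per the labels' protocols, RNA was extracted with TRIzol and made into strand-specific libraries without ribosomal RNA. The authors deposited TPM per gene and library. Tools listed in the submitters' processing notes are StringTie, HISAT2, HTSeq and DESeq2, with mm10 as the build and without versions or roles. Which program wrote the TPM, and with what strand setting, those notes do not say.

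Values of 3 identifiers on 2 rows were summed. GENCODE M21 gave coordinates for all 78 members and 52483 of 52630 identifiers, and shares of exonic bases and 50-base words. Promoters came from a RefSeq table. For shTopors minus shCtrl, log2(TPM + 1) of the 13509 genes averaging 1 TPM or more went into limma 3.58.1 (R 4.3.3; eBayes with trend), with Benjamini-Hochberg adjustment and a threshold of 0.05. Such differences understate the change of low genes. Levels and folds are of TPM itself. A change in a few abundant RNAs moves the TPM of all others. The steps were tested on simulated data with less noise than these libraries, so that test does not show how often the fit misses changes here. Tables were handled in Python 3.11.15 with pandas 2.3.3 and numpy 2.4.6, and plots were drawn in matplotlib 3.10.9.

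Full values are given for Ephx1, the 2 highest members of each class, and members with a log2 difference of at least 1 and groups that do not overlap. Each list gives its gene with the smallest p, and other members are given by class. Alternatives changed the pseudocount, filter, scaling or variance model, added a replicate block, or dropped each library in turn. Members were set by gene name, with no measured value in the rule. That rule, the lists and the alternatives were chosen with earlier results of these data known.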

Additional observations from a re-analysis of the deposited data

How the results depend on the processing

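The counts of calls depended on the settings, and for each such change the cause was not tested. Over all genes limma called 1 higher and 4 lower. With no filter on low values it called 0 and 0, and it called 0 higher and 1 lower with a 5 TPM filter, quantile normalization, median-of-ratios scaling, or rescaling that left out the 10 most abundant genes, small RNAs and mitochondrial genes. With the replicate block it called 6 higher and 27 lower. The replicate numbers are not known to pair the samples, and deviations of same-numbered libraries correlated at 0.199. The block changed no member's call. With 1 library left out the calls ran from 0 to 687 genes higher and from 0 to 1479 lower, and from 0 to 2 members higher and from 0 to 20 lower. Members with a log2 difference of at least 1 and groups that did not overlap numbered from 0 to 2 higher and from 7 to 18 lower, against 0 and 9 with all libraries. A group left with 1 library overlaps less easily.

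For Ephx1 the log2 difference ran from -1.96 to -1.64 with 1 library left out, and its limma adjusted p was 0.0513 with a robust fit and 0.0556 with the block. Over 25 named members, 307 of 349 values under an alternative kept direction and side of the threshold, 26 passed it newly and 16 changed sign. The sign changes were all in members with overlapping groups. With median-of-ratios scaling Gsta4 was at 0.08 and Sult2b1 at 0.02, and with quantile normalization they were at 0.01 and 0.09. With 1 library left out, the log2 difference ran from -0.13 to 0.69 for Ephx2, from -0.45 to 0.23 for Gsta4, from -0.13 to 0.35 for Gsto1, from -0.64 to 0.18 for Gstp3, from -0.35 to 1.03 for Sult1a1, from -0.61 to 0.33 for Sult2b1, from -2.17 to 0.69 for Ugt1a6a and from -1.28 to 0.12 for Ugt1a6b. With 2 libraries per group and unknown depth, members near 1 TPM are the least certain.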

Other observations

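Other motifs were counted in the same 250-base promoters, on both strands. GCGTG, the core of the xenobiotic response element, occurred in 28.28% of all RefSeq promoters and in 7 of 35 member promoters, those of Gstm1, Gstm5, Gstp1, Gstp3, Mgst3, Sult1d1 and Ugt1a5. The site of the liver factor HNF1 occurred in 0.41% of all promoters and in 3 of 35 member promoters, those of Sult1d1, Ugt1a1 and Ugt1a9, whose groups each overlapped. CAAAGTCCA, a site of the liver factor HNF4, occurred in 0.38% of all promoters and in 0 of the member promoters.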
